A study of Mus musculus with 14 samples.

Results

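Vegfa, Vegfb, Vegfc, Pgf, Angpt1, Apln and Hbegf encode secreted or shed ligands that act on blood or lymphatic vessels. Their 7 rows were taken by gene symbol from a count table of 23337 genes in purified mouse cardiomyocytes, and all 7 symbols matched a row. They were chosen by their counts in these 14 libraries, with the difference between the groups already known, so that difference is described here and not tested. RNA was sequenced from 2 groups of 7 samples. All mice carried Rosa-Cas9GFP, that is Cas9 and GFP at the Rosa locus, and were injected at postnatal day 1 with an adeno-associated virus (AAV). The gRNA group received AAV-Ryr2gRNA, whose guide RNA targets the cardiac ryanodine receptor gene, and the control group received AAV-Cre, named for the Cre recombinase. Heart muscle cells were isolated by Langendorff perfusion at 4 weeks of age and sorted by FACS. Neither the promoter that drove Cre or Cas9 nor any Cre in the guide virus is given in the sources used here, and guide and vector cannot be told apart. Nothing in the labels ties the samples of a group to separate animals, and p-values measure only a spread between samples that may be technical.

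Vascular endothelial growth factors bind receptor tyrosine kinases on endothelial cells: VEGF-A signals mainly through VEGFR2 (Kdr), VEGF-B and placental growth factor bind VEGFR1 (Flt1), and VEGF-C acts on lymphatic endothelium through VEGFR3 (Flt4). Angiopoietin 1 stabilises vessels through the receptor Tie2 (Tek), apelin is a peptide ligand of the receptor APJ (Aplnr), and heparin-binding EGF-like growth factor is shed from the cell surface and binds Egfr and Erbb4. In the heart, cardiomyocytes are known as a main source of VEGF-A and VEGF-B for the capillaries that run beside them.

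Total counts per library ranged from 5689335 to 13165662. Ryr2, the targeted gene, lay between 602 and 763 CPM (counts relative to library size, scaled by the trimmed mean of M values) in the controls and between 225 and 371 CPM in the gRNA group. Its mean fell from 675 ± 71.4 to 309 ± 48.1 CPM (SD, n = 7 each), a log2 fold change of -1.13 (two-sided exact permutation test, p = 0.00058, the smallest that 3432 assignments allow). The summed CPM of 9 cardiomyocyte markers ranged from 101700 to 120740 in controls and from 81678 to 109620 in gRNA libraries, above every other marker list. By edgeR's test 6 of the 9 fell, Ryr2 among them, and 0 rose. Of all genes tested, 13.7% fell and 14.5% rose. The 4 libraries with a library index of 7 to 10 (control replicates 4 and 5, gRNA replicates 4 and 5) stood apart from the other 10, and the labels name no batch for them. The split thus follows the values of these same libraries and no label. Calls within a library set are therefore given as description. Their fibroblast marker sums were 948 and 900.4 CPM in controls and 1820 and 1629 CPM in gRNA, whereas the other 5 controls did not exceed 398 CPM and the other 5 gRNA libraries did not exceed 602 CPM. Where the difference of a ligand, of a called gene of the pathway lists or of an endothelial receptor was over 1.5 times larger in one of these 2 sets of libraries than in the other, or changed sign, the values of both sets are given. Libraries of one group differed by more than sampling noise (chi-square divided by its degrees of freedom was 4.58 to 26.9 over 42 pairs), so each was kept as 1 sample.

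Read per kilobase of exon, the 7 ligands spanned a wide range in control cardiomyocytes. Vegfb was the most abundant, at 206 ± 21.4 CPM per kb (SD, n = 7), above 97.1% of the genes tested. Vegfa followed at 92.6 ± 11.3 CPM per kb, above 93.5% of genes. Angpt1 reached 21.3 ± 2.57, Hbegf 12.01 ± 2.06 and Apln 8.74 ± 2.05 CPM per kb. Vegfc, at 1.90 ± 0.248 CPM per kb, and Pgf, at 0.487 ± 0.320 CPM per kb, were at the bottom, with Pgf above only 3.36% of genes. The control ranges of neighbours in this order did not overlap except for Hbegf (7.79 to 13.8 CPM per kb) and Apln (6.09 to 12.5 CPM per kb).

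**Figure D1:**
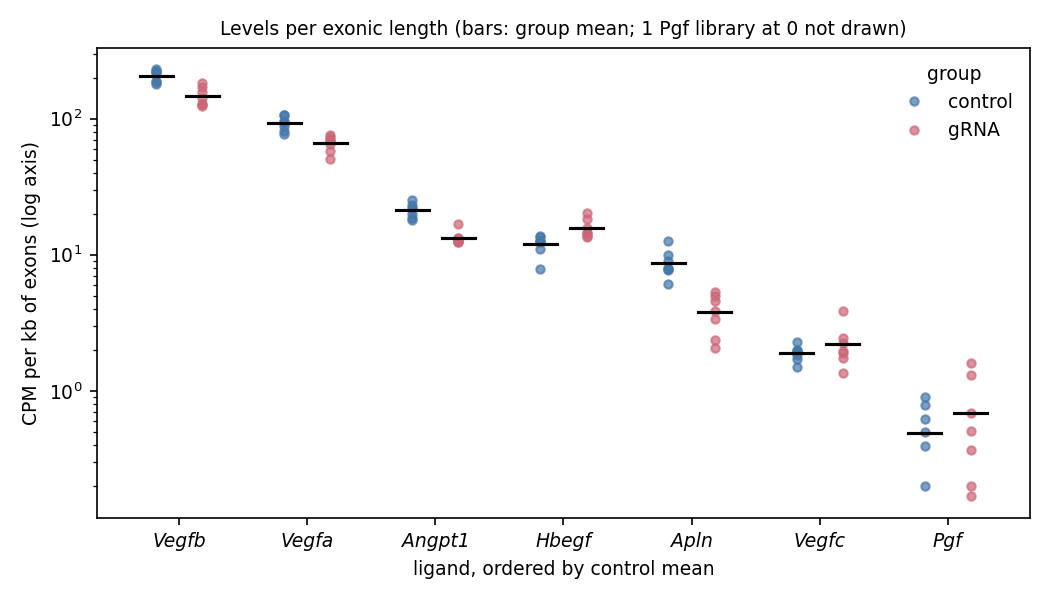
Level of each ligand in CPM per kb of exon (log axis) by library, with the controls and the gRNA group side by side; points are libraries, bars are group means, and 1 Pgf control at 0 is not drawn. In controls Vegfb (mean 206) and Vegfa (mean 92.6) lie above the other ligands, and Vegfc and Pgf lie lowest; in the gRNA group the mean of Hbegf (15.8) is above that of Angpt1 (13.3).

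In the gRNA group the order was the same apart from one exchange: Hbegf averaged 15.8 ± 2.60 CPM per kb and Angpt1 13.3 ± 1.58 CPM per kb, with overlapping ranges (13.6 to 20.4 and 12.3 to 16.8). Apln, at 3.79 ± 1.26 CPM per kb, came down to within reach of Vegfc, at 2.22 ± 0.808 CPM per kb. Their ranges overlapped (2.06 to 5.33 and 1.34 to 3.87 CPM per kb), as did those of Vegfc and Pgf.

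Of the ligands, 4 were lower in the gRNA group (Vegfa, Vegfb, Angpt1 and Apln) and Hbegf was higher, while Vegfc and Pgf, both near the detection limit, did not separate by group. The filter on low counts was passed by 6 of the 7, and not by Pgf. In the fit over all 11170 genes that passed, 28.2% of genes were called at an adjusted p under 0.05 (14.5% higher and 13.7% lower in gRNA). Among the 6 fitted ligands, 4 were past that threshold and lower and 1 was past it and higher; since the genes were chosen with this contrast known, nothing is read from that count. The median log2 fold change of all tested genes was 0.01.

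**Figure D2:**
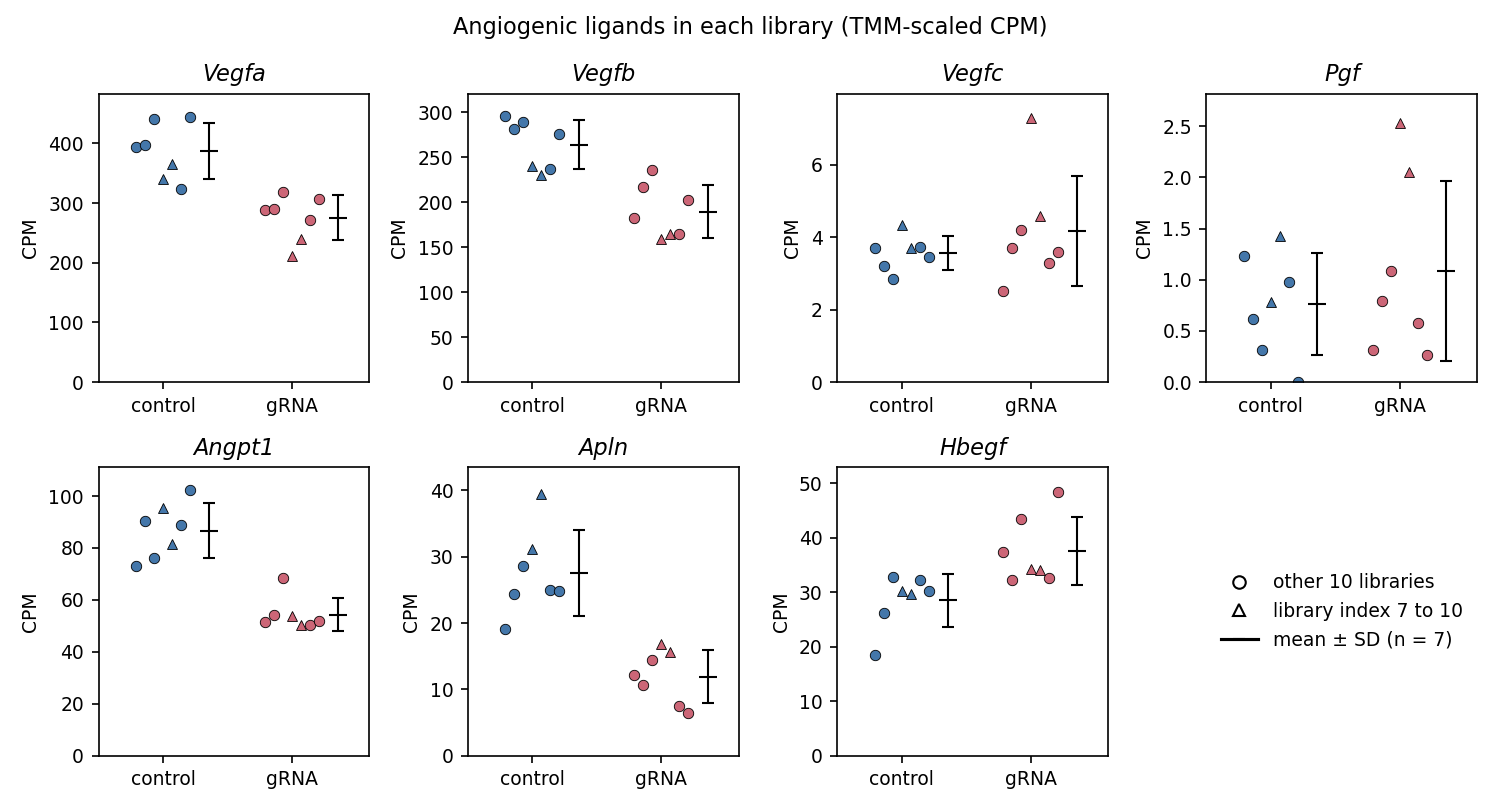
CPM of each of the 7 ligands in every library, by group, one panel per gene with its own axis; bars are mean ± SD and triangles are the libraries with index 7 to 10. Every gRNA library lies below every control library for Vegfa, Angpt1 and Apln, and for Hbegf all 7 gRNA libraries exceed the median control.

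The sequences just before the start sites of Vegfa, Vegfb and Apln are shown as those of 3 of the 4 lower ligands, from RefSeq (assembly GRCm38.p6), taken here at its entry nearest to the start of the counted gene. Angpt1 and Hbegf had no entry among the 5 ligands matched. Each run is the 250 bases before the start, 5′ to 3′ on the gene's strand, at chr17:46032378-46032627, chr19:6987652-6987901 and chrX:48034854-48035103 (all minus strand). Capitals mark GGGCGG, the GC box bound by Sp-family factors, and GCGTG, a core of the hypoxia response element, each on either strand.
Vegfa: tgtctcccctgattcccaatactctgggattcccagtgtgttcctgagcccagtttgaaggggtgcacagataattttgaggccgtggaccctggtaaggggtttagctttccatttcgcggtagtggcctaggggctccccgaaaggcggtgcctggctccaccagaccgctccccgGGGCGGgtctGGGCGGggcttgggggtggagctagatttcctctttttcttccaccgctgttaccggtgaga
Vegfb: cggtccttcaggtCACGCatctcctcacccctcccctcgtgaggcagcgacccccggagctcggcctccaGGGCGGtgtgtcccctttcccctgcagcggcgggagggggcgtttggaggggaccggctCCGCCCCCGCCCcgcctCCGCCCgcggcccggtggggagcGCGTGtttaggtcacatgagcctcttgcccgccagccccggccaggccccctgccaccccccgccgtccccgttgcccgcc
Apln: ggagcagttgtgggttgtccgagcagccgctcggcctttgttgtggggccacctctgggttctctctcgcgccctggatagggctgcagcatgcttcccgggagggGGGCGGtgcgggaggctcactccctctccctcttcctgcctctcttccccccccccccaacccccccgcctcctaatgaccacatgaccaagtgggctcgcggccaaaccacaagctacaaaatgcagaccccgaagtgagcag
GGGCGG occurred 2 times before Vegfa, 4 times before Vegfb and 1 time before Apln, and it is held by 32.7% of the 32851 mouse promoters of this length. GCGTG occurred 2 times before Vegfb and in neither of the others, and 28.2% of promoters hold it. A further 3 motifs were searched on both strands and found in none of these 3 windows: ACGTG, the other core of the hypoxia response element (16.6% of promoters), TGATGNAAN, the composite site of ATF4 with C/EBP factors (3.44%), and AAGGTCA, the site of estrogen-related receptors (4.08%). The nearest entries of Vegfc and Pgf, which did not separate by group, held GGGCGG 2 times each, and that of Pgf held GCGTG 1 time. Another Vegfa entry, 7214 bases into the counted gene, held ACGTG 1 time, GCGTG 1 time and GGGCGG 1 time. ACGTG and GCGTG differ in their opening base and do not overlap. The GC content of the 3 windows was 59.2%, 76.4% and 65.2%, above the median of 52.4% over all promoters. A match describes letters only, and no match says only that the letters are not in this window.

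Vegfa (mm10, chromosome 17, 46016993 to 46032377, minus strand, 4174 bp of merged exons) encodes the principal growth factor for capillaries. Its lowest, median and highest control values were 323, 395 and 444 CPM, and the corresponding gRNA values were 212, 289 and 319 CPM. All 7 gRNA libraries were thus below all 7 controls. The mean was 387 ± 47.0 CPM in controls and 275 ± 37.9 CPM in gRNA (SD, n = 7 each), 71.2% of the control level, with a log2 fold change of -0.49 (SE 0.094). The difference was -0.68 in the libraries with index 7 to 10 and -0.44 in the other 10. gRNA replicate 4, one of the 4 libraries standing apart, held the lowest Vegfa value. Counts per gene do not separate the splice forms of Vegfa, which differ in their binding to matrix.

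Vegfb (chromosome 19, 6982472 to 6987651, minus strand, 1282 bp of exons) encodes a VEGFR1 ligand that is abundant in heart and has been linked to lipid handling and coronary growth. Control values ran from 229.7 CPM through a median of 276 to 296 CPM, and gRNA values from 159 CPM through a median of 182 to 236 CPM. In all, 6 of the 7 gRNA libraries were below the lowest control, and gRNA replicate 3 overlapped the control range. The mean was 264 ± 27.5 CPM in controls and 189 ± 29.6 CPM in gRNA, 71.7% of control (log2 fold change -0.48, SE 0.094, with -0.58 in the libraries with index 7 to 10 and -0.46 in the other 10).

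The 2 most abundant ligands were lower by nearly the same proportion. Within each library, the ratio of Vegfa to Vegfb per kb was 0.450 ± 0.0338 in controls (range 0.410 to 0.495) and 0.449 ± 0.0392 in gRNA (range 0.409 to 0.506). The 2 sets of ratios covered almost the same range.

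Vegfc (chromosome 8, 54077532 to 54186454, plus strand, 1881 bp of exons) encodes the lymphatic growth factor. It was detected at a low level, with 186 reads over all controls and 223 over all gRNA libraries. Control values were 2.84, 3.70 and 4.33 CPM at the lowest, median and highest, and gRNA values 2.53, 3.71 and 7.28 CPM. The medians of the groups were almost equal, and the highest gRNA values, 7.28 and 4.59 CPM, belonged to gRNA replicates 4 and 5. The log2 fold change was 0.21 (SE 0.199), 0.49 in the libraries with index 7 to 10 and 0.03 in the other 10, and 0.05 without gRNA replicate 4.

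Pgf (chromosome 12, 85166641 to 85177285, minus strand, 1569 bp of exons), which encodes placental growth factor, had 43 reads over all controls and 56 over all gRNA libraries. Its control values ran from 0 CPM through a median of 0.787 to 1.42 CPM. Its gRNA values ran from 0.263 CPM through a median of 0.794 to 2.53 CPM, so the ranges overlapped. The 2 highest values were again those of gRNA replicates 4 and 5, at 2.53 and 2.05 CPM. These 2 libraries also had the highest fibroblast sums (1820 and 1629 CPM) and macrophage sums (464 and 303 CPM, against at most 100.1 CPM in the other 5 gRNA libraries) of all libraries, and the part of other cells in the Vegfc and Pgf values was not tested. A difference in Pgf was not detectable at this depth.

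Angpt1 (chromosome 15, 42424725 to 42676795, minus strand, 4076 bp of exons) encodes the agonist of Tie2. The lowest, median and highest control values were 72.9, 88.7 and 102 CPM, and those of the gRNA group were 50.3, 51.7 and 68.5 CPM. No gRNA value reached the control range, and gRNA replicate 3 alone was above 54.1 CPM in its group. The mean was 86.7 ± 10.5 CPM in controls and 54.3 ± 6.43 CPM in gRNA, 62.6% of control, with a log2 fold change of -0.67 (SE 0.087; -0.81 in the libraries with index 7 to 10 and -0.64 in the other 10).

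Apln (chromosome X, 48025146 to 48034852, minus strand, 3148 bp of exons) encodes the precursor of apelin. Control values were 19.2, 25.0 and 39.4 CPM at the lowest, median and highest, and gRNA values 6.50, 12.2 and 16.8 CPM. The groups did not overlap. In each group the 2 highest values were those of replicates 4 and 5 (31.2 and 39.4 CPM in controls, 16.8 and 15.6 CPM in gRNA), libraries that also had the highest endothelial marker sums of their group. Among the other 10 libraries the endothelial sums were 453 to 855 CPM in controls and 374 to 644 CPM in gRNA, and their part in the Apln values was not tested. The mean was 27.5 ± 6.45 CPM in controls and 11.9 ± 3.96 CPM in gRNA, 43.3% of control, which was the largest proportional difference among the 6 fitted ligands (log2 fold change -1.21, SE 0.203; -1.17 and -1.26 in the 2 library sets). Apln also varied most between libraries of one group among the 4 lower ligands, with a coefficient of variation of 23.4% in controls and 33.2% in gRNA, against 12.2% and 13.8% for Vegfa.

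Among the genes tested, 10.5% had groups that did not overlap; Vegfa, Angpt1 and Apln were such genes, and Vegfb missed by a single library. No exon of the 7 ligands overlapped an exon of another counted gene. The authors' deposited table gave log2 fold changes of -0.50 for Vegfa, -0.49 for Vegfb, -0.68 for Angpt1, -1.22 for Apln, 0.40 for Hbegf, 0.20 for Vegfc and 0.45 (SE 0.582) for Pgf.

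**Figure D3:**
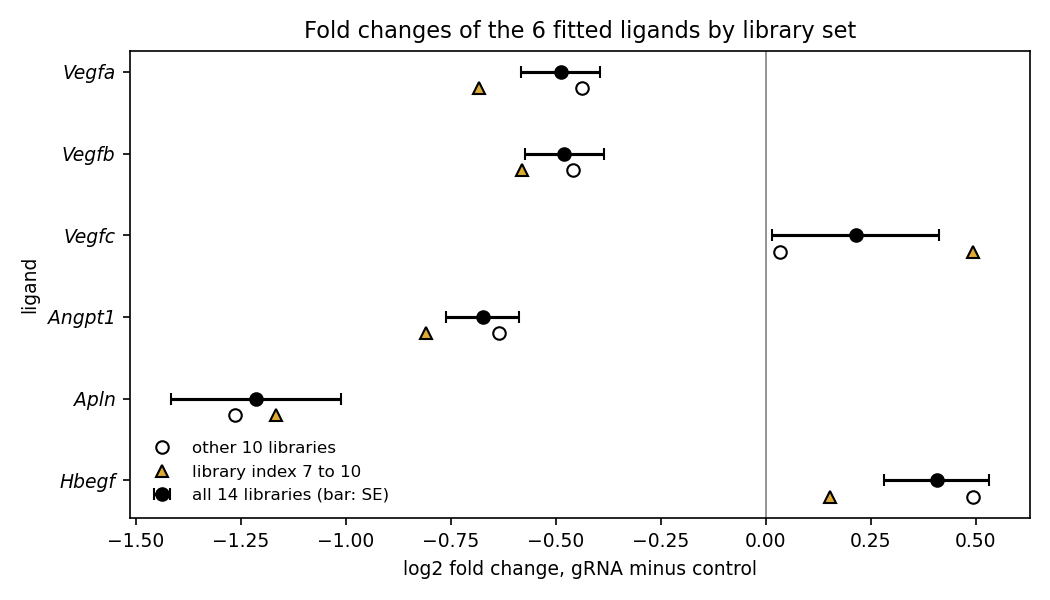
Log2 fold change (gRNA minus control) of the 6 fitted ligands from all 14 libraries (bars are standard errors), beside the values from the 4 libraries with index 7 to 10 and from the other 10. Apln is lowest (-1.21), Angpt1, Vegfa and Vegfb lie between -0.67 and -0.48, and Hbegf is at 0.41 in all libraries and 0.15 within index 7 to 10.

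Hbegf (chromosome 18, minus strand, 2375 bp of exons) encodes the membrane-anchored precursor of HB-EGF. Control values were 18.5, 30.2 and 32.8 CPM at the lowest, median and highest, and gRNA values 32.3, 34.3 and 48.5 CPM. In 5 of the 7 gRNA libraries Hbegf was above the highest control and in the other 2 it lay within the control range. The mean was 28.5 ± 4.89 CPM in controls and 37.5 ± 6.18 CPM in gRNA, 132% of control, with a log2 fold change of 0.41 (SE 0.125). The difference was 0.15 in the libraries with index 7 to 10 and 0.49 in the other 10. With the lower Vegfa, the ratio of Hbegf to Vegfa per kb within a library went from 0.132 ± 0.0301 in controls (0.0825 to 0.175) to 0.241 ± 0.0328 in gRNA (0.196 to 0.285), and the 2 ranges did not overlap. Both genes were chosen with their group differences known, and the ratio combines opposite differences, so nothing is read from that separation.

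The receptors of these ligands were measured in the same sorted cells. The list held 13 receptors and co-receptors, of which 12 passed the filter; 1 rose (Erbb2) and 1 fell (Nrp1) by edgeR's quasi-likelihood test with Benjamini-Hochberg adjustment over 11170 genes, 16.7% called against 28.2% of all genes. The median log2 fold change of the list was -0.13. Erbb2, the co-receptor through which Erbb4 signals in cardiomyocytes, rose from 20.9 ± 2.33 to 26.6 ± 2.89 CPM (log2 fold change 0.35, edgeR adjusted p = 0.00778). Erbb4 itself was at 5.77 CPM in controls and 6.42 CPM in gRNA (0.15, edgeR adjusted p = 0.46), and Egfr was close to absent, with 40 and 47 reads over the groups.

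Nrp1, a co-receptor of VEGF-A and of semaphorins, fell from 183 ± 26.4 to 128 ± 46.2 CPM (log2 fold change -0.51, edgeR adjusted p = 0.0421). Its call did not survive removal of control 1, 3, 4, 5 or 6, or of gRNA 1, 2, 3, 6 or 7 (adjusted p between 0.0504 and 0.0813). The difference was -0.25 in the libraries with index 7 to 10 (edgeR adjusted p = 0.162) and -0.70 in the other 10 (edgeR adjusted p = 0.00137). With a term for the library set it was -0.56 (edgeR adjusted p = 0.00113).

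The endothelial receptors were not called over all 14 libraries, and their values differed between the library sets. Kdr was at 149 ± 52.2 CPM in controls and 126 ± 77.4 CPM in gRNA (log2 fold change -0.25, edgeR adjusted p = 0.614). Among the other 10 libraries Kdr was called lower (-0.57, edgeR adjusted p = 0.0409), whereas the libraries with index 7 to 10 gave 0.06. Tie1, the orphan receptor that pairs with Tie2, was likewise called lower among the other 10 (-0.51, edgeR adjusted p = 0.0476), with -0.01 in the libraries with index 7 to 10 and -0.26 over all 14 (edgeR adjusted p = 0.58). Flt1 was at 19.4 and 17.4 CPM, Tek at 35.7 and 33.6 CPM, and Aplnr at 64.4 and 59.6 CPM (edgeR adjusted p between 0.762 and 0.842). Their log2 fold changes among the other 10 libraries were -0.60, -0.33 and -0.26. In the libraries with index 7 to 10 they were 0.28, 0.16 and 0.03, with no call in either set. Flt4 differed by 0.42 in the libraries with index 7 to 10 and by 0.14 in the other 10. Ptprb and Nrp2, also on the receptor list, changed sign. Ptprb was at 0.13 with index 7 to 10 and at -0.48 in the other 10, and Nrp2 at 0.06 and -0.34. Flt4, Ptprb and Nrp2 were not called over all 14 libraries or in either set.

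Markers of other cells are also given by library set. Since the split follows such values, a difference between the sets is not a finding. The summed CPM of 15 endothelial markers, Kdr, Flt1, Tek and Tie1 among them, ranged from 453 to 1208 in controls and from 374 to 1373 in gRNA, with the libraries of index 7 to 10 at 972, 1208, 1373 and 1090 CPM. Over all 14 libraries 0 of 15 were called by edgeR, 0 had an unadjusted p under 0.05, and DESeq2 called 0. Among the other 10 libraries, 14 of the 15 were lower in gRNA and 4 were called lower (Cdh5, Kdr, Tie1 and Fabp4); in the libraries with index 7 to 10, 2 of the 15 were lower and 1 was called higher (Vwf). Of 10 fibroblast markers tested over all libraries, 0 were called by edgeR or DESeq2 and 0 had an unadjusted p under 0.05, but 7 of 11 were called higher in the libraries with index 7 to 10, and 0 of 9 among the other 10 (1 at an unadjusted edgeR p under 0.05). Of 10 macrophage markers tested, 3 rose (Emr1, C1qb and Lyz2), with sums of 26.2 to 126 CPM in controls and 65.0 to 464 CPM in gRNA. In the separate sets, 10 of 13 macrophage markers rose in the libraries with index 7 to 10 and 7 of 9 among the other 10. With a term for the library set over all 14 libraries, edgeR called 5 of 10 fibroblast and 10 of 10 macrophage markers higher. In that fit 14 of 15 endothelial markers were lower, 0 were called and 4 had an unadjusted edgeR p under 0.05. Of 11170 genes, that fit called 1891 higher and 1761 lower. For comparison, of 11798 genes tested in the libraries with index 7 to 10, 689 rose and 777 fell. Of 11044 genes tested among the other 10, 1379 rose and 1284 fell. Over all 14 libraries 14.5% of genes rose and 13.7% fell.

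Of 10 pericyte and smooth muscle markers, 4 rose (Des, Acta2, Cspg4 and Tagln) and 1 fell (Abcc9), against 14.5% and 13.7% of all genes. Their sums ranged from 3741 to 4092 CPM in controls and from 4514 to 6060 CPM in gRNA, but most of each sum was Des (mean 2705 CPM in controls), Acta2 (696.5 CPM) and Abcc9 (350.2 CPM), which muscle cells also express. Pdgfrb (36.1 and 33.7 CPM), Rgs5 (26.4 and 27.6 CPM), Kcnj8, Myh11 and Notch3 were not called by edgeR over all 14 libraries (adjusted p between 0.538 and 0.918). Cspg4 of the same list rose from 25.2 to 48.3 CPM (0.94, edgeR adjusted p = 0.00192). By edgeR's test Kcnj8 was called lower among the other 10 libraries, and Notch3 higher in the libraries with index 7 to 10. The erythroid sum was at most 16.1 CPM in controls and 72.9 CPM in gRNA, most of the latter from Beta-s; the other globin genes of that list were listed at 0 in every library. The part of other cells in the receptor values was not tested. In bulk samples, fewer cells of a type and less RNA per cell cannot be told apart.

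**Figure D4:**
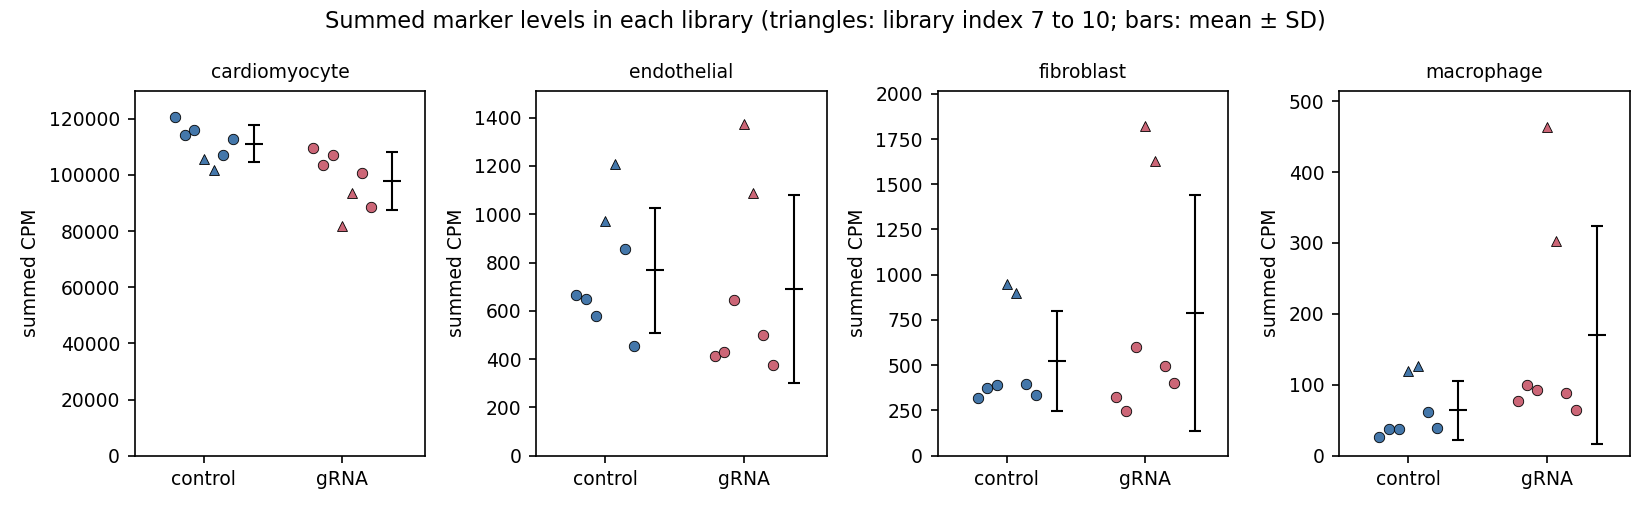
Summed CPM of the marker genes of cardiomyocytes, endothelium, fibroblasts and macrophages in every library, by group. Triangles are the libraries with index 7 to 10 and bars are mean ± SD; gRNA replicates 4 and 5 have the highest fibroblast (1820 and 1629 CPM) and macrophage sums (464 and 303 CPM).

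Other secreted factors that act on vessels moved in both directions. Of 49 genes, 34 passed the filter, of which 4 rose, 3 fell and 27 were not called by edgeR's test. The share called was 20.6%, against 28.2% of all genes, and the median log2 fold change was -0.07. Ntn4, which encodes a netrin of the vascular basement membrane, rose from 16.9 ± 1.53 to 31.0 ± 6.11 CPM (log2 fold change 0.87, edgeR adjusted p = 2.4e-05). Ctgf, a matrix-associated growth factor, rose from 175 ± 35.0 to 343 ± 124 CPM (0.97, edgeR adjusted p = 0.000859). The guidance cue Sema3c rose from 25.5 to 47.3 CPM (0.90, edgeR adjusted p = 0.000193; 0.59 in the libraries with index 7 to 10 and 1.02 in the other 10), and the angiopoietin-like factor Angptl6 from 3.21 to 8.18 CPM (1.35, edgeR adjusted p = 4.65e-05). The summed fibroblast markers ranged from 320 to 948 CPM in controls and from 248 to 1820 CPM in gRNA, and their part in these values was not tested.

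Egf, a founding member of the family to which HB-EGF belongs, fell from 9.12 to 5.25 CPM (log2 fold change -0.81, edgeR adjusted p = 0.0119; -1.14 in the libraries with index 7 to 10 and -0.74 in the other 10), opposite in direction to Hbegf. Slit2, a ligand of Robo receptors, fell from 13.04 to 7.86 CPM (-0.74, edgeR adjusted p = 0.0225), with -0.30 in the libraries with index 7 to 10 and -1.02 in the other 10. Pdgfc fell from 5.22 to 3.65 CPM (-0.51, edgeR adjusted p = 0.0451). The difference in Pdgfc was -0.01 in the libraries with index 7 to 10 and -0.72 in the other 10, and its call was lost on leaving out any of 11 libraries, that is all but control replicate 5 and gRNA replicates 1 and 5 (adjusted p up to 0.0944). Fgf1, an abundant growth factor in these cells, was at 367 CPM in controls and 343 CPM in gRNA (-0.10, edgeR adjusted p = 0.127), and Fgf16 at 29.1 and 24.0 CPM (-0.27, edgeR adjusted p = 0.0516). The vasoconstrictor gene Edn1 (0.51), the hypoxia-responsive Angptl4 (0.78) and the Tie2 antagonist gene Angpt2 (-0.22) were not called by edgeR (adjusted p between 0.0768 and 0.672), and Fgf2 had 29 and 22 reads. Angptl4 was called without control replicate 2, its highest control (1.39, edgeR adjusted p = 0.0299). Edn1 was called without control replicate 6 or gRNA replicate 4 or 7 (0.58 to 0.62, edgeR adjusted p between 0.0345 and 0.0448). Fgf16 was called without control replicate 4 or 5 or gRNA replicate 3 (-0.31, edgeR adjusted p between 0.0275 and 0.0362), among the other 10 libraries, with a term for the library set, under both other scalings and by DESeq2. Fgf1 was called by DESeq2 (-0.11, adjusted p = 0.0435).

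**Figure D5:**
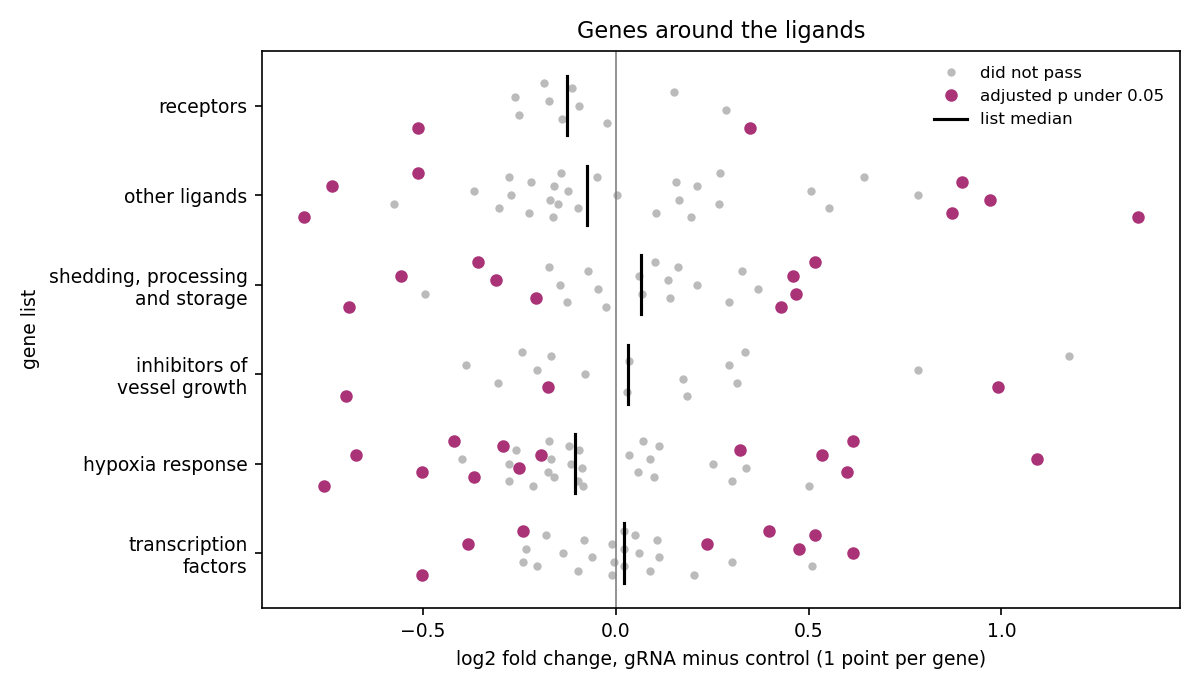
Log2 fold change (gRNA minus control) of the tested genes of each list, one row per list, with called genes as large points and the list median as a bar. Called genes lie on both sides of 0 in each list, and the list medians lie between -0.13 and 0.06.

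Release from the cell surface or matrix sets how much of HB-EGF and the VEGFs is free. Of 33 genes for shedding, processing and storage, 26 passed the filter, and 4 rose and 5 fell by edgeR's test. The share called was 34.6%, against 28.2% of all genes, and the median log2 fold change was 0.06. Adam17, the main sheddase of HB-EGF, fell from 70.7 ± 4.29 to 57.1 ± 4.12 CPM (-0.31, edgeR adjusted p = 0.000872), while both inactive rhomboids that carry ADAM17 to the surface rose, Rhbdf2 by 0.46 and Rhbdf1 by 0.43 on the log2 scale (edgeR adjusted p = 0.00257 and 0.00551). The difference in Rhbdf2 was 0.22 in the libraries with index 7 to 10 and 0.55 in the other 10. Nrd1, which encodes an enhancer of ADAM17 shedding, fell by 0.21 (edgeR adjusted p = 0.0109). Adam10 and the HB-EGF partner Cd9 were not called (-0.05 and 0.06, edgeR adjusted p = 0.825 and 0.914).

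Heparan sulfate proteoglycans bind VEGF-A and HB-EGF outside the cell. Of these, Sdc2 rose by 0.47 (edgeR adjusted p = 0.000263) and Sdc4 fell by 0.69 (edgeR adjusted p = 0.00949). Sulf2, a sulfatase that edits heparan sulfate, rose from 87.0 to 125 CPM (0.52, edgeR adjusted p = 0.000333). Adamts3, a protease in VEGF-C processing, fell by 0.36 (edgeR adjusted p = 0.0137). Adam19 fell by 0.56 (edgeR adjusted p = 0.0431), a call lost on leaving out any of 9 libraries, namely control replicates 1 to 4 and gRNA replicates 3 to 7 (adjusted p up to 0.107); the difference was -0.38 in the libraries with index 7 to 10 and -0.64 in the other 10.

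Of 22 inhibitors of vessel growth, 21 matched a row and 18 passed the filter, of which 1 rose and 2 fell by edgeR's test. The share called was 16.7%, against 28.2% of all genes, and the median log2 fold change was 0.03. The matrix thrombospondin gene Thbs4 rose from 7.87 to 15.8 CPM (0.99, edgeR adjusted p = 0.00025). Adamts9, a matrix protease of the endothelial surface, fell by 0.70 (edgeR adjusted p = 0.00739). Cd36, which is a thrombospondin receptor and the main fatty acid translocase of cardiomyocytes, fell from 1840 to 1627 CPM (-0.18, edgeR adjusted p = 0.0428). The Cd36 call was lost on leaving out any of 10 libraries, that is all but control replicates 4 and 5 and gRNA replicates 6 and 7 (adjusted p up to 0.0882), and the difference was -0.08 in the libraries with index 7 to 10 and -0.23 in the other 10. Thbs1, the thrombospondin that binds Cd36, was at 4.29 and 9.88 CPM and was not called over all 14 libraries (1.18, edgeR adjusted p = 0.106). It was called higher in each library set alone, by 1.22 in the libraries with index 7 to 10 (edgeR adjusted p = 0.0115) and by 1.05 among the other 10 (edgeR adjusted p = 0.0113), with a term for the library set (1.15, edgeR adjusted p = 0.000358), and without control replicate 4 (1.55, edgeR adjusted p = 0.0407).

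Vegfa is a known target of hypoxia-inducible factors, and 41 genes of the hypoxia response were examined beside it. Of 38 that passed the filter, 5 rose, 8 fell and 25 were not called by edgeR's test. The share called was 34.2%, against 28.2% of all genes, and the median log2 fold change was -0.11. Those that rose were Slc2a1, the glucose transporter GLUT1, from 16.9 ± 3.12 to 35.97 ± 7.25 CPM (1.09, edgeR adjusted p = 1.68e-05), the glycogen branching enzyme gene Gbe1 (0.60), the collagen hydroxylases P4ha1 (0.62) and Plod2 (0.54, with 0.26 in the libraries with index 7 to 10 and 0.63 in the other 10), and the endoplasmic reticulum oxidase Ero1l (0.32; edgeR adjusted p for the last 4 between 4.27e-05 and 0.00382). Slc2a1 and Vegfa thus differed in opposite directions.

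Epas1, which encodes HIF-2 alpha, fell from 152 ± 7.99 to 108 ± 19.4 CPM (-0.50, edgeR adjusted p = 0.00102; -0.32 in the libraries with index 7 to 10 and -0.60 in the other 10). Hif1a was not called (189 and 201 CPM, log2 fold change 0.09, edgeR adjusted p = 0.525). The oxygen-sensing hydroxylase genes Egln3 (-0.76), Egln1 (-0.29) and Hif1an (-0.37) all fell, with Egln3 going from 98.2 to 57.9 CPM (edgeR adjusted p between 0.000133 and 0.0157). Egln1 was at -0.44 in the libraries with index 7 to 10 and -0.26 in the other 10. Ak4, a mitochondrial adenylate kinase, fell by 0.67 (edgeR adjusted p = 1.66e-05). Ldha, Higd1a and Narf fell by 0.25, 0.42 and 0.20 (edgeR adjusted p between 0.0013 and 0.028), with Higd1a at -0.65 in the libraries with index 7 to 10 and -0.35 in the other 10.

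Of 30 transcription factors that textbooks link to these ligands, all passed the filter, and 5 rose and 3 fell by edgeR's test. The share called was 26.7%, against 28.2% of all genes, and the median log2 fold change was 0.02. The factors of the unfolded protein response Atf6 and Xbp1 rose by 0.52 and 0.47 on the log2 scale (edgeR adjusted p = 0.00108 and 0.00208). Atf4, the effector of the integrated stress response, rose from 63.7 ± 11.02 to 97.2 ± 31.6 CPM (0.61, edgeR adjusted p = 0.0101), with 0.88 in the 10 other libraries and the opposite sign, -0.12, in the libraries with index 7 to 10. Epas1, counted above, was among the 3 that fell. Ppargc1a, a coactivator that can raise Vegfa, was at 208 CPM in controls and 184 CPM in gRNA (-0.18, edgeR adjusted p = 0.328), and its relative Ppargc1b fell by 0.38 (edgeR adjusted p = 0.0368; -0.56 in the libraries with index 7 to 10 and -0.33 in the other 10).

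In this list 4 calls rested on small margins. Ppargc1b lost its call without control replicate 1, 3, 4 or 5 or gRNA replicate 1, 2, 4, 5 or 7 (edgeR adjusted p up to 0.0835), and Srf, lower by a log2 fold change of -0.24 (edgeR adjusted p = 0.0241), without control replicate 1 or 7 or gRNA replicate 1, 4 or 5 (adjusted p up to 0.0591). Stat3 (0.24, edgeR adjusted p = 0.0467) lost its call without any of 11 libraries, that is all but control replicate 1 and gRNA replicates 2 and 4 (adjusted p up to 0.0995). Nfat5 (0.40, edgeR adjusted p = 0.0475; 0.09 in the libraries with index 7 to 10 and 0.52 in the other 10) lost it without control replicate 2, 3, 6 or 7 or gRNA replicate 1, 2, 5, 6 or 7 (adjusted p up to 0.112). Neither Stat3 nor Nfat5 was called by DESeq2, under median-of-ratios scaling or with no low-count filter. In each of those fits 3 factors of the list rose (Atf4, Atf6 and Xbp1). Nfat5 also lost its call under upper-quartile scaling, and Stat3 with a filter of at least 1 CPM in 7 samples.

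The genes whose levels most resembled each ligand across the 14 libraries were found after the mean of each group and library set had been subtracted, so that neither difference could set the likeness. Pearson's r is given as a description over 14 libraries that share depth and preparation. The 3 genes named for each ligand had the highest r of 8053 genes compared (8054 for Vegfc), so the choice itself raises r. How high r would be from that choice alone was not tested. The genes named for Vegfa were Scand1 (r = 0.89), Lsmd1 (0.85) and Cox16 (0.85), and those for Vegfb Macrod1 (0.92), Ccdc124 (0.90) and Asb2 (0.89). For Angpt1 they were Homer2 (0.87), Gpr180 (0.86) and Abhd13 (0.85), and for Apln Gstt1 (0.94), Acot7 (0.92) and Atrip (0.86). Hbegf was nearest to Cyr61 (0.85), Gosr2 (0.84) and Tmem53 (0.84), and Vegfc to Gas1 (0.89), Atp5g2 (0.87) and Rarb (0.87). No gene was among the nearest 3 of more than 1 ligand, and none of the ligands was among the nearest 3 of another. Vegfc and Pgf were too low to be candidates, and few of the many genes compared could be named. Nothing is therefore read from the lack of shared neighbours.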

How the data were processed

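Poly(A) RNA libraries (SMART-Seq v4, which does not mark the strand, and Nextera XT) of 14 samples were used. The submitters' processing notes list STAR, featureCounts, DESeq2, DESeq and build mm10. Their versions and the strandedness and annotation used for counting are not stated in the sources used here. The authors deposited unnormalized read counts per gene with exon positions and merged exon lengths. The authors' deposited table of their comparison gives, per the file headers, log2 fold changes with standard errors, p-values, a mean signal (counts divided by size factors) and a score (the Wald statistic); its numerator is not named, and its log2 fold change had the same sign as the present fit for 100% of called genes. Genes without strand information cannot be told from antisense partners.

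Computed here: CPM from the counts with TMM-scaled library sizes, CPM per kb of merged exons, and edgeR 4.0.16 (R 4.3.3) quasi-likelihood tests, two-sided, with filterByExpr, no covariates and Benjamini-Hochberg adjustment over 11170 genes; calls were made at 0.05. Log2 fold changes are gRNA minus control. Counts carry no molecular identifiers. Precision depends on their number (5689335 to 13165662 per library) and on the spread between libraries, which was beyond sampling noise. The ligands and the gene lists were chosen with earlier results of these data known. Named were the 7 ligands, Ryr2, up to 6 tested genes of each list with the smallest p, every gene behind a list count of at most 5, some genes named in advance, and the 3 genes nearest each ligand with a mean log2 CPM (prior count 2) of at least 3. No row lacked a gene name, and 0 columns were unmapped. Alternatives covered DESeq2 1.42.0, 2 scalings, 2 filters, a replicate block, a term for the library set, each library set alone and each library left out; the code was tested on simulated data.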

Additional observations from a re-analysis of the deposited data

Results flagged for a closer look

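In 8 of 132 groups of 7 libraries checked, 1 library lay apart from the others by more than Dixon's 95% criterion; chance alone would give about 1 in 20 groups. One concerned a ligand: Angpt1 in gRNA replicate 3 was at 68.45 CPM against 54.13 CPM in the next library. The others were Ntn4 in control replicate 1 (20.24 against 17.19 CPM) and in gRNA replicate 7 (43.2 against 31.81 CPM), Atf4 in gRNA replicate 7 (162.3 against 106.9 CPM), Slc2a1 in control replicate 6 (23.22 against 17.79 CPM), Angptl4 in control replicate 2 (80.04 against 32.09 CPM), Angpt2 in gRNA replicate 4 (3.956 against 1.933 CPM) and Erbb2 in control replicate 7, the lowest of its group (16.23 against 20.82 CPM). Without gRNA replicate 3 the log2 fold change of Angpt1 was -0.73, and without control replicate 2 that of Angptl4 was 1.39, called by edgeR (adjusted p = 0.0299), against 0.78 with it.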

How the results depend on the processing

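Under 23 alternatives the directions of Vegfa, Vegfb, Vegfc, Angpt1, Apln and Hbegf were kept, and 4 lower and 1 higher were past the threshold in each, except that Hbegf was not within the 4 libraries with index 7 to 10. Leaving out each library in turn gave log2 fold changes of -0.53 to -0.42 for Vegfa, -0.53 to -0.43 for Vegfb, 0.05 to 0.30 for Vegfc, -0.73 to -0.63 for Angpt1, -1.30 to -1.10 for Apln and 0.32 to 0.44 for Hbegf. Over all genes it gave 2743 to 3173 calls, against 3149. It gave 1 to 2 calls among receptors and 4 to 8 among transcription factors. Among the 4 libraries with index 7 to 10 there were 1466 calls over all genes, 8 in the hypoxia list, 0 among 13 receptors (3 at an unadjusted edgeR p under 0.05, 0 by DESeq2), 5 in the shedding list and 2 among transcription factors, in a comparison of fewer samples; Atf4 reversed there (-0.12, edgeR adjusted p = 0.662), and 16 of 36 named called genes kept their call. Among the other 10 libraries there were 4 calls among receptors and 5 among inhibitors, and 2663 over all genes. DESeq2 called 11 other ligands, with 48 tested rather than 34, and 3320 of 17091 genes in all. A term for the library set gave 6 calls among inhibitors and 3652 over all genes. With that term edgeR called Serpinf1 (0.80, adjusted p = 0.0125) and Sparc (0.33, adjusted p = 0.0172) higher. The replicate block gave 9 calls among inhibitors and 3770 over all genes. With the block edgeR also called Kdr (-0.38, adjusted p = 0.029), Fgf16 (-0.28, adjusted p = 0.0172), Angptl4 (1.02), Thbs1 (1.13), Serpinf1 (0.78) and Sparc (0.34). The labels do not pair the replicate numbers. Same-numbered libraries correlated at 0.061 to 0.533 (6 of 7 over 0.1), and 1 of 7 controls matched its own number best. The cause of these shifts was not tested. Depth limits Vegfc and Pgf, with 186 and 43 control reads.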

Other observations

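Of the genes in the lists, 29 did not pass the filter on low counts, and 4 of them were called both by DESeq2 and by edgeR with no filter. Over all genes, edgeR with no filter called 2927 of 17091 and DESeq2 called 3320 of 17091, so nothing is read from the count of 4. Except for Nrg1, these 4 genes were chosen after their values were seen. Nrg1, which encodes neuregulin 1, a ligand of Erbb4, had 7 reads over all controls and 57 over all gRNA libraries. All 7 gRNA values (0.431 to 2.53 CPM) were above all control values (0 to 0.315 CPM), with a log2 fold change of 2.78 and an edgeR adjusted p of 0.00173 with no filter (DESeq2 2.90, adjusted p = 0.000739). Tgfa, an Egfr ligand shed by ADAM17 like HB-EGF, had 40 and 103 reads (edgeR with no filter 1.28, adjusted p = 0.0258; DESeq2 1.30, adjusted p = 0.0163). Vash2, a vasohibin gene, had 36 and 116 reads (edgeR with no filter 1.55, adjusted p = 0.00109; DESeq2 1.56, adjusted p = 0.000387). Ccbe1, a cofactor in the processing of VEGF-C, had 68 and 25 reads (edgeR with no filter -1.54, adjusted p = 0.00768; DESeq2 -1.59, adjusted p = 0.00297).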
